A study of Sparus aurata with 9 samples.

Results

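In livers of gilthead sea bream (Sparus aurata), 31 array sequences had a higher signal in every pool of unexposed fish than in any pool of fish kept with gold nanoparticles (AuNP), at 0.5 as well as at 50 µg/L. They were found among 5049 sequences that were measurable in all control pools, and they make up 0.614% of these. The members were chosen by their measured signals: a sequence was taken when all 3 control pools lay above all 6 exposed pools, when the control mean was at least 0.5 above the exposed mean on the log2 scale, and when neither exposed group lay wholly below the other. The same 9 values per sequence that chose the members also give their differences from controls and between both concentrations, so these differences are described below and not tested.

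The liver of a teleost makes most plasma proteins, stores lipid and glycogen, and takes up and transforms foreign compounds from the blood. Particles that enter the circulation can collect in it. The array used here was built from expressed sequences of the species, some assembled into contigs and some single clones, and its files pair none of them with a gene name. A lookup of 43949 sequence and probe names in RefSeq's genes of the species (assembly fSpaAur1.1) matched 0, so no role can be given to any member. For the same reason the labelled tissue was not checked against liver markers. Probe sequences were not used here.

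Juveniles of about 50 g were kept for 24 h in artificial seawater with AuNP at 0 (Control), 0.5 or 50 µg/L, with 9 fish per group, 27 in all. Per the labels, 0.5 µg/L stands for a concentration forecast in natural water, and 50 µg/L is far above it. Liver RNA of 3 fish was combined per pool, which leaves n = 3 pools per group, and each pool was read on 1 single-colour array. All fish came from 1 culture facility and shared the water, diet and temperature of the acclimation. The tanks lay within the treatment, so tank and concentration cannot be told apart. The labels do not say that pools came from separate exposures, so any p-value measures only the spread between pools. In RNA of whole liver, fewer cells of a type and less RNA per cell cannot be told apart.

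Levels are log2 signals relative to the 75th percentile of their array, so a level of 0 is a signal at that percentile, and a difference of 1 is 2-fold. A probe counted for its sequence when it was well above background, as the scanner software flags it, on all 3 Control arrays. Between 26.0% and 47.1% of the 28793 probes were well above background per array, and with 3 arrays a group their number sets the precision. The log2 75th percentile relative to the spike-in RNA was -4.80, -5.54 and -5.63 in the Control pools, -5.65, -5.34 and -5.38 at 0.5 µg/L, then -4.84, -4.95 and -4.78 at 50 µg/L, so Control pool 1 lay among the high-dose pools by this measure. Each slide carried 1 pool of each group, in the same order, so that place on the slide and treatment cannot be told apart.

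Over the 31 members, the Control mean exceeded the exposed mean by a median of 0.88 (0.51 to 1.89), where the median over all 5049 sequences was 0.06. As a fold this was 1.83 (1.42 to 3.72). Of the members 13 reached 2-fold, and of all 5049 sequences 45 did (0.891%), a count that the rule favours among members. Among the 13, only cDN09P0006E23.F.ab1 and cDN01P0001I03.F.ab1 were well above background on all exposed arrays. The median member stood -0.90, -0.70 and -0.62 from its Control mean in pools 1 to 3 of the lower concentration, and -0.92, -0.97 and -1.05 from it in pools 1 to 3 of the higher one. The rule fixes that every exposed pool lies below Control, so these values describe the size alone.

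**Figure D1:**
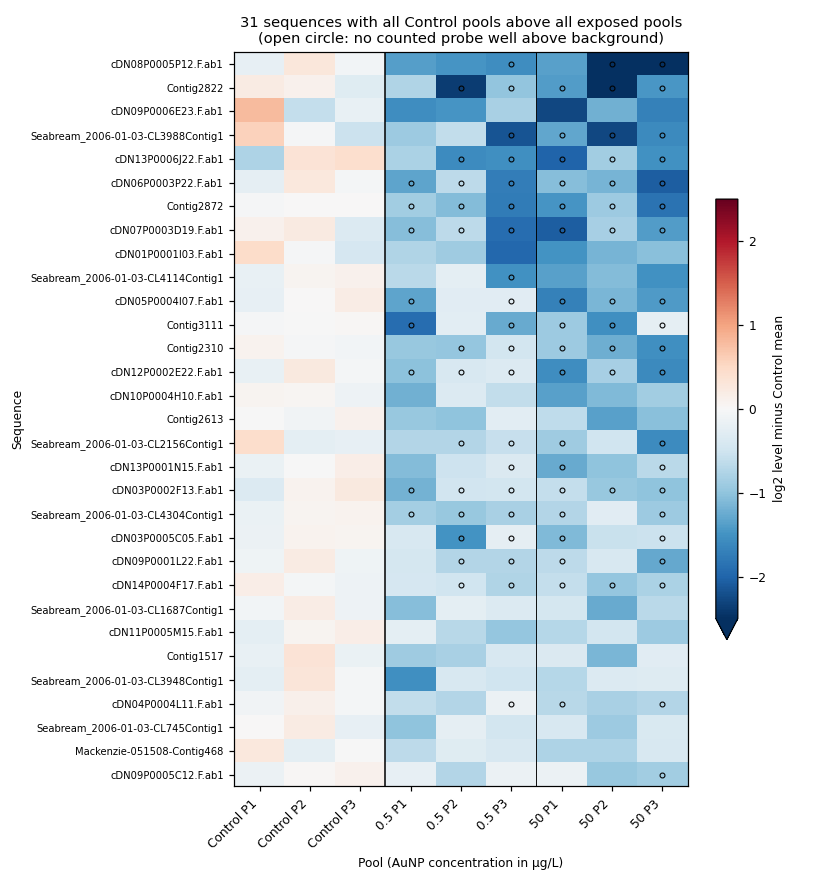
Each row is one of the 31 members, ordered by the difference between Control and exposed means, and each column is a pool. Colour gives the log2 level minus the Control mean of that sequence, and an open circle marks a pool in which no counted probe was well above background. The Control columns are pale, the exposed columns are blue, and circles occur in the exposed columns alone.

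The number of members must be read against what the rule finds in either direction. When no size was asked for, 64 sequences (1.27%) had all Control pools above all exposed pools and 26 (0.515%) had them all below. With a difference of 0.5 or more these were 37 (0.733%) and 9 (0.178%). With the whole rule turned around, 7 sequences (0.139%) had the Control pools below. The imbalance changed with the processing and with the filter, which looks at Control arrays alone. With probes well above background on all 9 arrays, 9 sequences of 3771 (0.239%) had Control above and 5 (0.133%) had it below. With probes measured on all 3 arrays of any 1 group, 31 of 5191 (0.597%) had Control above and 8 (0.154%) had it below. With no filter on dim probes, 45 of 15156 sequences had Control above and 64 had it below. Under the main filter, the deposited values as they stand gave 15 above and 20 below, of 5044 sequences. Scaled to the 75th percentile, they gave 63 and 2. Of 5049 sequences, spike-in scaling gave 22 and 4, and median centring 28 and 9. A further background correction, normexp, gave 13 and 0.

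In limma, fitted over all 9 arrays and adjusted over all 5049 sequences, 0 sequences (0%) passed an adjusted p of 0.05 in the comparison of exposed pools with Control. The smallest adjusted p was 0.454, and 246 sequences (4.87%) had an unadjusted p under 0.05. At 0.5 µg/L against Control 0 passed as well, with a smallest adjusted p of 0.798 and 272 sequences (5.39%) at an unadjusted p under 0.05. At 50 µg/L the count was 0, with a smallest adjusted p of 0.219 and 670 sequences (13.3%) at an unadjusted p under 0.05. These contrasts are the ones that chose the members, so nothing about the members is read from them.

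The members fall into 2 kinds by how well the exposed arrays measured them. Of the 31, 10 (32.3%) had a counted probe well above background on all 6 exposed arrays, against 3789 of the 5049 sequences. These 10 had a median difference of 0.67 (0.55 to 1.5) and Control levels from 0.25 to 6.63. The other 21 had a median difference of 1.01 (0.51 to 1.89) with Control levels between -0.75 and 0.76. Of these 21, 16 were well above background on at most 2 of the 6 exposed arrays, 3 on 3 and 2 on 5, so most of their exposed values are not measured levels. With normexp, another way to correct for background, the median difference of all 31 members was 0.37 in place of 0.88. Here an offset of 50 was added to each signal, which by itself narrows log2 differences of dim signals. How much of the drop came from the offset was not tested, here or in the normexp values of single members below.

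Among the well-measured members, the clone cDN09P0006E23.F.ab1 had the largest difference. It alone among them also met the rule when signals were scaled to the spike-in RNA. Its level was 3.77, 2.38 and 2.80 in the Control pools, 1.43, 1.51 and 2.16 at 0.5 µg/L, then 0.70, 1.78 and 1.29 at 50 µg/L. The Control mean of 2.98 ± 0.71 (SD, n = 3) was 2.83-fold above the exposed mean. Control pool 1 was the highest of all pools, and the 2 remaining Control pools stood nearer to the exposed ones, by as little as 0.21. All 3 probes of this clone showed the pattern on their own, with differences of 1.53, 1.38 and 1.60.

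The clone cDN01P0001I03.F.ab1 had levels of 2.71, 2.22 and 1.83 in Control, 1.51, 1.36 and 0.29 at 0.5 µg/L, then 0.77, 1.08 and 1.20 at 50 µg/L. Both exposed groups were about as low, at means of 1.05 ± 0.67 and 1.02 ± 0.22 (SD, n = 3 each). Its 3 probes had differences of 1.24, 1.19 and 1.22, and each of them had all Control pools above all exposed pools. It was 2.33-fold higher in Control than in exposed pools.

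The contig Seabream_2006-01-03-CL1687Contig1 differed less but evenly. Its level was 3.60, 3.85 and 3.54 in Control, 2.60, 3.42 and 3.32 at 0.5 µg/L, then 3.22, 2.41 and 2.99 at 50 µg/L. Its 3 probes had differences of 0.65, 0.68 and 0.67, all with separate groups. These 3 sequences, which the rule for naming picked for their number of probes, were the only members with several counted probes of which every one set Control apart.

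The brightest member was Contig1517, at 6.45, 6.97 and 6.46 in Control, 5.74, 5.81 and 6.22 at 0.5 µg/L, then 6.27, 5.49 and 6.34 at 50 µg/L. Pool 3 at 50 µg/L came within 0.11 of the lowest Control pool. Of its 3 probes, CUST_980_PI419285025 had a difference of 0.88 and CUST_981_PI419285025 one of 0.56, both with separate groups. The remaining probe, CUST_979_PI419285025, had a difference of 0.50, and its groups overlapped, with 7.27 in Control pool 1 and 7.52 in pool 3 at 0.5 µg/L.

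The clone cDN10P0004H10.F.ab1, read by 1 probe, stood at 2.60, 2.59 and 2.41 in Control, 1.33, 2.20 and 1.92 at 0.5 µg/L, then 1.17, 1.43 and 1.67 at 50 µg/L. Its Control pools were close together (SD 0.11) and 1.89-fold above the exposed mean. Contig2613, a member picked once the values were known, read 2.01, 1.93 and 2.13 in Control, 1.07, 1.02 and 1.76 at 0.5 µg/L, then 1.38, 0.67 and 0.97 at 50 µg/L. In both, the exposed pool nearest to Control belonged to 0.5 µg/L, pool 2 for the clone and pool 3 for the contig.

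**Figure D2:**
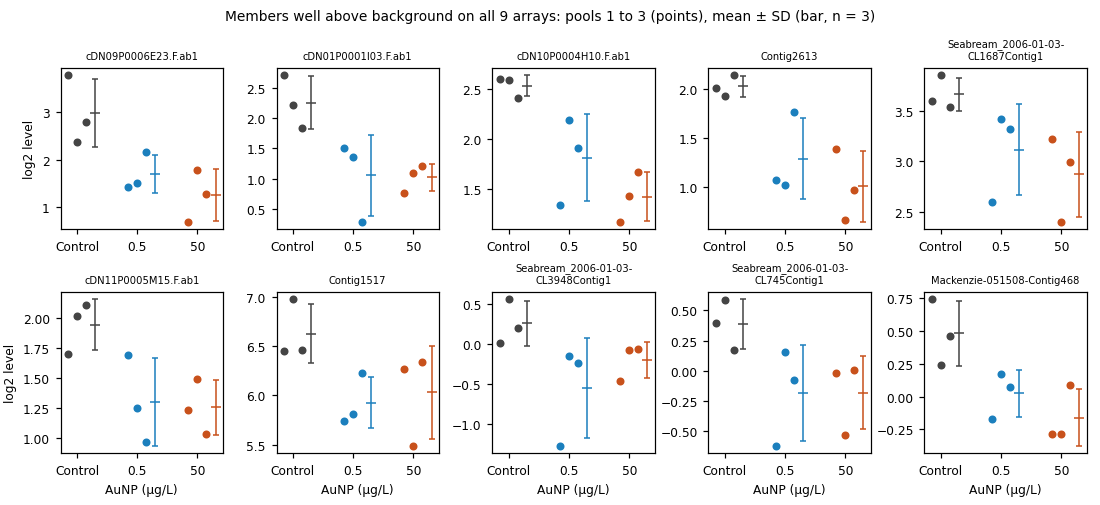
Log2 levels of the 10 members well above background on all 9 arrays, one panel per sequence, with pools 1 to 3 of each group as points from left to right and the mean ± SD (n = 3) beside them. Vertical axes differ between panels and do not start at 0. In all panels the lowest Control point lies above the highest exposed point, by 0.32 at most and 0.008 at least.

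Among the dim members, the clone cDN08P0005P12.F.ab1 had the largest difference of all 31 and the widest gap between groups. It stood at 0.56, 1.04 and 0.69 in Control, -0.62, -0.72 and -0.79 at 0.5 µg/L, then -0.59, -1.91 and -2.16 at 50 µg/L. The lowest Control pool lay 1.15 above the highest exposed pool. The pools at 0.5 µg/L agreed closely (SD 0.09), whereas those at 50 µg/L spread widely (SD 0.84), with pool 1 at the level of the low dose. Its probe was well above background on 2 arrays of the lower and on 1 array of the higher concentration, and read 2.78-fold and 4.98-fold below Control. With normexp its difference was 0.97 in place of 1.89.

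Contig2822 stood at -0.29, -0.38 and -0.79 in Control, -1.23, -2.87 and -1.47 at 0.5 µg/L, then -1.89, -3.08 and -1.95 at 50 µg/L. No array at 50 µg/L measured it well above background. Its level in Control was 2.58-fold higher than there with a floor on the exposed signal. The floor raised values at 50 µg/L, array by array, to the dimmest probe signal well above background. Values over the floor were kept though not well above background, so a floored fold is no strict lower bound. Both further probes of Contig2822, which the rule did not count, had differences of 1.68 and 1.67. In neither of them did all Control pools lie above all exposed pools. With normexp the difference of the contig was 0.51 in place of 1.59, so the floored fold holds for the processed signal alone.

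Contig2872 had the closest Control pools among the members with wide gaps, at -0.66, -0.61 and -0.61. Its exposed pools read -1.49, -1.72 and -2.37 at 0.5 µg/L, then -2.11, -1.54 and -2.48 at 50 µg/L, and none of these 6 arrays measured it well above background. With the same floor, Control was 1.76-fold higher than 0.5 µg/L and 2.00-fold higher than 50 µg/L on the processed signal. Its uncounted probes had differences of 0.17 and 1.09, and with normexp its difference was 0.44 in place of 1.32. The clone cDN06P0003P22.F.ab1, also dim on all 6 exposed arrays, was 1.73-fold and 2.01-fold higher in Control with the floor, from Control pools at -0.93, -0.44 and -0.76. Its difference was 0.40 with normexp in place of 1.33. In all, 5 members were well above background on 0 of 6 exposed arrays, beside 0.198% of all sequences.

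The clone cDN13P0006J22.F.ab1 and the contig Seabream_2006-01-03-CL3988Contig1 had mean differences of 1.38 and 1.47 with narrow gaps, and neither was well above background on any array of the higher concentration. In the clone, Control pool 1 read -1.07 while the other Control pools read 0.02 and 0.12, and pool 1 at 0.5 µg/L came within 0.03 of it, at -1.10. In the contig, Control pool 3 read -0.26 and pool 2 at 0.5 µg/L read -0.33. Both uncounted probes of the clone had differences of -0.50 and -0.30, but they were well above background on no array. Over all of its probes, with these included, the difference was 0.19. With normexp the difference was 0.37 for the clone and 0.66 for the contig.

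Members with several probes offer a second look, since the rule used only the mean over counted probes. Of the 27 counted probes of the 10 members with more than 1, all 27 were higher in Control on average, 26 by 0.5 or more, and 18 had all Control pools above all exposed pools. The probes of a member differed among themselves by a median of 0.17, near the 0.16 of all 2227 sequences with several counted probes. These probes entered the rule as a mean, so their common direction follows in part from it. The other 21 members rest on 1 counted probe, and 5 of those on a single spot.

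A further 20 probes of 11 members were not well above background on all Control arrays and so did not count. Of these, 14 were higher in Control on average and 13 by 0.5 or more, with a median difference of 0.83. Among 2077 uncounted probes of all other sequences, 40.1% were higher in Control, 7.85% by 0.5 or more, and the median was -0.12. The sets differ in detection. Of those well above background on 1 or 2 Control arrays, 13 of 13 member probes and 12.9% of 1109 others reached 0.5. Of those well above background on no Control array, 0 of 7 member probes and 2.07% of 968 others did, with medians of -0.49 and -0.39. The uncounted probes of members were read on the same arrays and from the RNA that chose the members, so they add no samples and no independent support.

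The clone cDN03P0002F13.F.ab1 shows how far probes of 1 sequence can part. Its counted probe had a difference of 0.78, and its uncounted probe CUST_11506_PI419285025 had 1.91 with a Control mean of 0.89. Another, CUST_11508_PI419285025, had -0.62 at a Control mean of -3.26 and was well above background on no array. In cDN14P0004F17.F.ab1, likewise, 3 uncounted probes that were well above background on no array had differences of -0.54, -0.49 and -0.49 beside 0.67 for the counted probe, and over all its probes the difference was -0.21. These sequences were singled out after their values were seen.

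**Figure D3:**
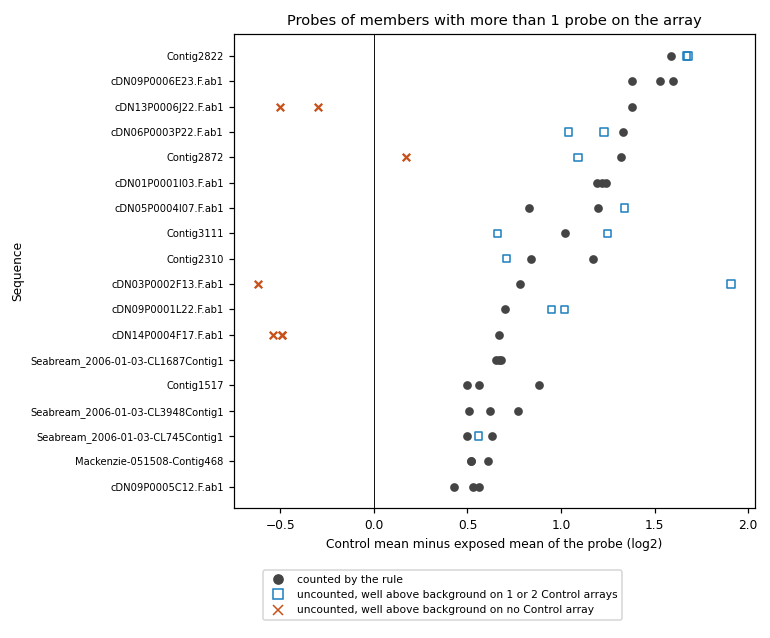
Control mean minus exposed mean of each probe for the 18 members with more than 1 probe on the array. Filled circles are probes counted by the rule, open squares are uncounted probes well above background on 1 or 2 Control arrays, and crosses are uncounted probes well above background on none. Circles and squares lie at 0.43 or more, and crosses lie between -0.62 and 0.17. A probe brighter in Control is more often well above background there, so this split is not independent of the difference.

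Both concentrations were compared with the same 3 Control pools, so their differences are given side by side. The median member was 0.72 below Control at 0.5 µg/L (0.36 to 1.47) and 0.98 below at 50 µg/L (0.46 to 2.32), or 1.65-fold and 1.98-fold. Both sizes hold for scaling to the 75th percentile. Relative to the spike-ins, that percentile was -5.65, -5.34 and -5.38 at 0.5 µg/L. At 50 µg/L it was higher, at -4.84, -4.95 and -4.78. Scaling to the spike-ins would therefore raise 50 against 0.5 µg/L, which can change which group lies further below Control. The sizes by dose were not tested under that scaling. For 6 members at 0.5 and 12 at 50 µg/L, no array of the dose was well above background. With floored folds in place of measured ones for these, the medians were 1.65 and 1.97. The floor was not applied to members well above background on 1 array of a dose, 9 at 0.5 and 7 at 50 µg/L. The near-equal medians therefore do not show that dim values leave the size unchanged. The floor left the fold unchanged in 2 of the 6 and 3 of the 12. At both concentrations, 27 members were lower than Control by 0.5 or more, as were 130 of all 5049 sequences (2.57%), a count that the rule nearly fixes.

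The order of both concentrations can be read only where both were measured, and only for the scaling used here. Relative to the spike-ins, the percentile used for scaling was -5.65 to -5.34 at 0.5 and -4.95 to -4.78 at 50 µg/L. Scaling to the spike-ins would raise every sequence at 50 against 0.5 µg/L, so it can turn the order. The counts and steps below were not tested under that scaling. Among the 10 members well above background on all 6 exposed arrays, the mean at 50 µg/L lay below that at 0.5 µg/L in 7 (70.0%), against 61.3% of the 3789 sequences measured as well. Their median step was 0.12 (-0.35 to 0.45), and that of the 3789 was 0.11. For Seabream_2006-01-03-CL745Contig1 both means differed by less than 0.01. The order was turned most in Seabream_2006-01-03-CL3948Contig1, with a mean of -0.55 ± 0.62 at 0.5 and -0.21 ± 0.22 at 50 µg/L (SD, n = 3). These means include probes that were not well above background on every array. Without such probes the contig differed from Control by 0.77 in place of 0.63 and was no member. Its brightest probe alone had means of -0.04 at 0.5 and 0.02 at 50 µg/L. Over all 31 members, dim ones included, the mean was lower at 50 µg/L in 26 (83.9%, against 61.5% of all sequences). The rule shut out complete separation of the exposed groups, and 6 further sequences that met all other clauses were left out by it. In all 6 the pools at 50 µg/L were the lower ones, and 1 of them was well above background on no array there.

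**Figure D4:**
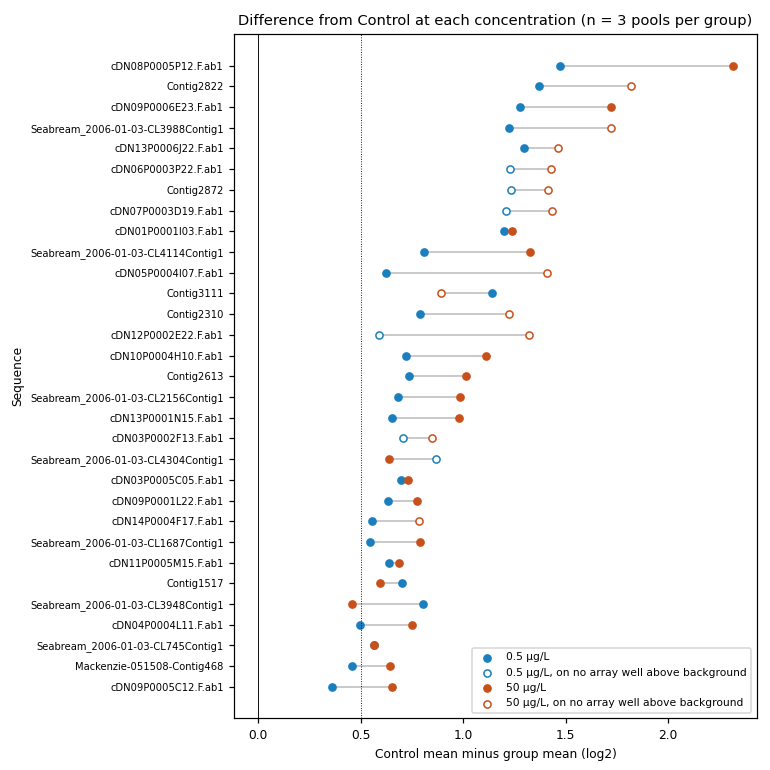
Control mean minus group mean on the log2 scale for each member at 0.5 µg/L (blue) and 50 µg/L (orange), n = 3 pools per group, with open points where no array of that group was well above background. The dotted line marks 0.5. For 26 members the orange point lies to the right of the blue one, though open points have no measured order, and no point lies below 0.36. Scaling to the spike-ins can change this order, which was not tested under it.

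The rule fixed that Control pools lie above exposed ones, but not which pools stand at the border. Control pool 1 was the lowest Control pool in 18 members (58.1%, against 42.2% of all sequences), pool 3 in 9 and pool 2 in 4. A pool at 0.5 µg/L was the highest exposed pool in 23 members (74.2%, against 56.9% of all sequences), pools 1 to 3 in 6, 8 and 9 of them. In the remaining 8 it was a pool at 50 µg/L. Scaling to the spike-ins would raise the pools at 50 against those at 0.5 µg/L. These counts of exposed pools were not tested under that scaling. Within slides, the median member was higher in Control by 0.97, 0.87 and 0.91 on slides 1 to 3, where the median of all sequences was 0.05, 0.10 and 0.05.

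Members had to be well above background on all Control arrays and lower in every exposed pool, so the rule itself favours fewer detections after exposure. Of the 31 members, 23, 18 and 11 were well above background in pools 1 to 3 at 0.5 µg/L, and 13, 18 and 11 in pools 1 to 3 at 50 µg/L. Over all 5049 sequences, these shares were 98.5%, 94.5% and 80.1% at the lower concentration, and 90.7%, 94.4% and 85.5% at the higher one. Pool 3 of each concentration had the fewest members well above background and also the lowest share of all sequences.

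Members were dimmer than most measured sequences already in Control. Their Control mean lay below the 75th percentile of the array in 17 of 31 (54.8%), against 26.8% of all sequences. Signals of different probes are not set against each other as abundance. Their spread between Control pools, a median SD of 0.20, was near the 0.21 of all sequences, although the rule favours members with close Control pools. At 0.5 and 50 µg/L their median SD was 0.40 and 0.36, against 0.24 and 0.28. Since 21 members were dim on at least 1 exposed array, this spread includes values that are not measured levels.

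**Figure D5:**
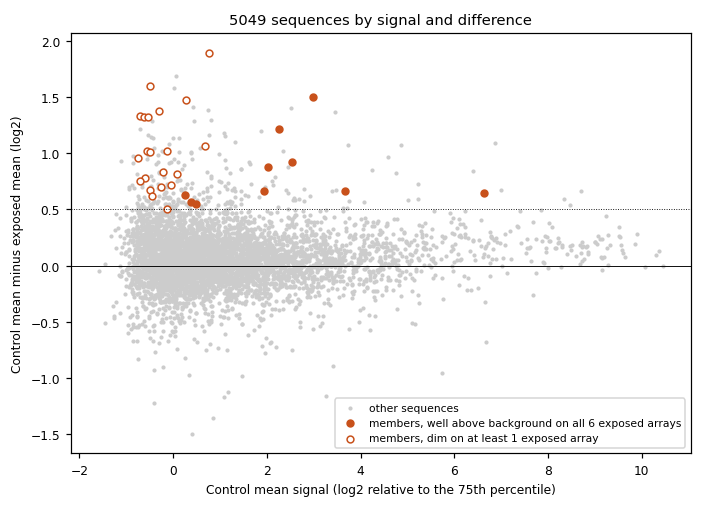
Control mean minus exposed mean against the Control mean, both on the log2 scale, for 5049 sequences (grey) and the 31 members (orange, filled where all 6 exposed arrays were well above background). The dotted line marks 0.5. The 21 open points crowd at Control levels of -0.75 to 0.76, where grey points also spread most, and the 10 filled points reach up to 6.63.

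By their names, 17 members were single clones of the cDN series (54.8%, against 42.9% of all sequences), 7 were contigs named Seabream_2006-01-03 (22.6% against 24.8%) and 6 were contigs named Contig with a number (19.4% against 29.4%). The remaining one was Mackenzie-051508-Contig468. The clones came from 13 of the 14 name series cDN01 to cDN14, with at most 3 from any.

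At the threshold itself, the members just inside were cDN09P0005C12.F.ab1 at 0.51, Mackenzie-051508-Contig468 at 0.55 and Seabream_2006-01-03-CL745Contig1 at 0.56. The sequences just outside that met the other clauses were cDN12P0002I08.F.ab1 at 0.47, cDN13P0003K08.F.ab1 at 0.46 and cDN11P0006I11.F.ab1 at 0.45. In cDN09P0005C12.F.ab1, Control pool 1 and pool 1 at 50 µg/L both read -0.27, and they differed by less than 0.001.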

How the data were processed

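Per the labels' protocols, 200 ng of total liver RNA per pool was labelled with Cy3 together with spike-in RNA. Per the file headers, Agilent Feature Extraction (version 10.7.3.1) made the deposited files, in which each spot has a linear intensity and a processed signal from which background was already taken off. The authors' deposited value table holds log2 values. All 280152 of its filled cells were within 0.001 of the log2 of the background-subtracted signal, and its empty cells had a signal of 0 or less, so the table was not scaled or centred, and its direction is that of the signal.

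The 43803 spots that are no controls were used. Each log2 processed signal was taken relative to its array's 75th percentile, spots were averaged per probe, and probes per sequence. A probe counted as well above background where at least 0.5 of its spots were flagged so, which gave 8972 probes of 5049 sequences. Comparisons came from limma 3.58.1 (R 4.3.3, lmFit and eBayes) with Benjamini-Hochberg adjustment over all sequences, tested on simulated data. The simulated sequences were lowered by more than the mean difference of any member. That test therefore does not show whether smaller differences would be called. Floored folds are explained beside their values.

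The members, the rule for named sequences (by difference, gap, signal, number of probes and nearness to the threshold) and the alternatives were chosen with earlier results of these data known. Gene lists could not be applied, for want of gene names. Normexp (offset 50) used the median spot signal. A filter that keeps probes measured on each array of any 1 group was added after seeing the data.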

Additional observations from a re-analysis of the deposited data

How the results depend on the processing

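The median difference of the 31 members, 0.88, was 0.37 with normexp background correction and its offset of 50. It was 0.68 to 0.95 under the other alternatives with all pools, over the 10 to 31 members that had a value. Every alternative kept it above 0, which the choice of members by these same arrays nearly fixes. The membership itself was less stable. The 31 members became 9 with probes well above background on all 9 arrays, 13 with normexp (6 of them among the 31), 15 with the deposited values as they stand (10 among the 31) and 63 with the deposited values scaled to the 75th percentile (25 among the 31). Scaling to the spike-ins gave 22, of which 10 were among the 31, and median centring gave 28, of which 18 were. No filter on dim probes gave 45 from 15156 sequences, of which 22 were. Of the 10 members well above background on all exposed arrays, cDN09P0006E23.F.ab1 alone met the rule with spike-in scaling. That scaling shifts all sequences of an array by 1 amount. Set against 75th percentile scaling, the shift was -5.54 and -5.63 in Control pools 2 and 3. It was -4.80 in Control pool 1, and -4.84, -4.95 and -4.78 at 50 µg/L. Control pools 2 and 3 are thus lowered against the pools at 50 µg/L. For the other alternatives the cause was not tested, except that a stricter filter tests fewer probes. Of 13 such alternatives, a member met the rule under 7 to 12, and cDN08P0005P12.F.ab1 and cDN09P0006E23.F.ab1 did so under 12. A difference of 0.25, 0.75 or 1 or more left 47, 20 and 13. Leaving out 1 pool gave 31 to 120 members, with fewer pools to part: 120, 50 and 74 without Control pools 1, 2 and 3, and 52 and 51 without pools 1 and 2 at 0.5 µg/L. The median difference was then 0.83 to 0.97. Of 446 values of the 21 named sequences under alternatives, 431 moved by less than 1 SD between pools and 14 by more, 10 of these with normexp. The sign changed in 1, cDN14P0004F17.F.ab1, at -0.21 with no filter on dim probes, which adds its probes well above background on no array.

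Limma's 0 calls held in all 3 comparisons under each scaling, filter, block and adjusted threshold tried. An unadjusted p under 0.05 passed 246, 272 and 670 sequences for all exposed pools, 0.5 and 50 µg/L. Leaving out 1 pool gave 0 to 1 calls for all exposed pools and for 50 µg/L, and 0 at 0.5 µg/L. The 1 call, cDN08P0005P12.F.ab1 without pool 1 at 50 µg/L, is a member without its highest exposed value, so it supports nothing. Pools of 1 number shared a slide, but the labels do not pair them and their deviations from group means did not go together (r from -0.16 to 0.14 over 9 pairs). With the slide as a replicate block limma called 0 in each comparison. Signal over background limits the 21 of 31 members that were dim on at least 1 exposed array.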
